A study of Mus musculus with 35 samples.

Results

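The tumour necrosis factor (TNF) receptor superfamily was followed through 9 of its receptor genes in regulatory T cells (Tregs), a CD4+ lineage that keeps other immune cells in check. The genes were Tnfrsf1a, Tnfrsf1b, Tnfrsf4, Tnfrsf9, Tnfrsf18, Tnfrsf25, Cd27, Fas and Ltbr, taken by symbol from the 55011 gene symbols of a table of RNA sequencing counts. Tregs from visceral adipose tissue (VAT) were set against Tregs from spleen at ZT0, 4, 8, 12, 16 and 20, where Zeitgeber time (ZT) counts hours from the start of the light phase. All were wild-type male C57BL/6 mice, retired breeders over 35 weeks old, on a day of 12 h light followed by 12 h dark, and the labels name no transgene, deletion or treatment in either tissue. Cells were flow sorted in repeated rounds as CD4+ CD25+, at 1000 cells per library, without a stated Foxp3 reporter, and CD25 is also carried by activated conventional T cells. There were 17 VAT libraries and 18 spleen libraries, 3 at each time except for VAT at ZT20 with 2. The labels do not say whether replicates came from separate or pooled animals, and p-values describe no more than the variation among these libraries, part or all of which may be technical.

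Of the 9 receptors, 4 were higher in VAT Tregs than in spleen Tregs, 3 were lower, 1 did not pass the test and 1 was too low to be tested. Tnfrsf18, Tnfrsf4, Tnfrsf25 and Tnfrsf1b were the 4 that rose, and Cd27, Tnfrsf1a and Fas the 3 that fell. The list in this way held both directions: 7 of 8 tested members were called, beside 62.2% of all genes tested, with 28.4% of all genes higher and 33.8% lower. No member passed the test for a 24 h rhythm in either tissue, beside 1.88% of all genes in VAT and 1.99% in spleen. A test of whether any time differed called Cd27 in VAT, beside 5.11% of all genes. It called Tnfrsf18 and Tnfrsf4 in spleen, beside 2.02%. None of these passed it once a covariate given below was added.

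Receptors of this family are membrane proteins that trimeric ligands bring together on the cell surface. Some carry a death domain inside the cell, through which they can recruit adaptors such as TRADD or FADD and lead to NF-kB signalling or to caspase activation. Others bind TRAF proteins directly and act in T cells as costimulatory receptors. In Tregs the family is best known for GITR, OX40 and TNFR2, the products of Tnfrsf18, Tnfrsf4 and Tnfrsf1b, which are abundant on these cells and support their proliferation and survival, and TNFR2 and DR3, the product of Tnfrsf25, are known for expanding Tregs in mice.

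Several members sit close together in the mouse genome (GRCm38, mm10; whole genes in the GENCODE M21 annotation, counted from 1). Tnfrsf4 lies on chromosome 4 at 156013843 to 156016612 and Tnfrsf18 follows it on the same plus strand at 156026164 to 156028895, with a gap of 9551 bp and 0 protein-coding genes between them. Chromosome 4 also holds Tnfrsf9 at 150914562 to 150946102 and Tnfrsf25 at 152115934 to 152120119, both on the plus strand, and Tnfrsf1b at 145213463 to 145246870 on the minus strand. On chromosome 6, Cd27 at 125232622 to 125237010 and Ltbr at 125306571 to 125313885 are on the minus strand and Tnfrsf1a at 125349362 to 125362484 on the plus strand, with 1 protein-coding gene between neighbours. Fas is apart from the others, on chromosome 19 at 34290666 to 34327772, plus strand. The called members on chromosome 4 were all higher in VAT and those on chromosome 6 lower, with Ltbr between Cd27 and Tnfrsf1a at hardly a read.

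Upstream sequence is shown for Tnfrsf18, the member that rose most, and for Tnfrsf1b, the gene of a receptor of TNF itself, which also rose. It is shown as well for Cd27 and Fas, which fell. The sequences are from RefSeq on GRCm38.p6, within 250 bases before the annotated start, printed 5′ to 3′ on the gene's strand and only where GENCODE M21 has no exon, which leaves 92 bases for Tnfrsf18. Capitals mark matches on either strand to an NF-kB-type motif (GGGNNNNNCC), an AP-1 motif (TGANTCA) or a GC box (GGGCGG), and overlapping matches run together.
Tnfrsf18, chr4:156026072-156026163, plus strand: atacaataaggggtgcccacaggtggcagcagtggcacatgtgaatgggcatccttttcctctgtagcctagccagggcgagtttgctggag
Tnfrsf1b, chr4:145246871-145247120, minus strand: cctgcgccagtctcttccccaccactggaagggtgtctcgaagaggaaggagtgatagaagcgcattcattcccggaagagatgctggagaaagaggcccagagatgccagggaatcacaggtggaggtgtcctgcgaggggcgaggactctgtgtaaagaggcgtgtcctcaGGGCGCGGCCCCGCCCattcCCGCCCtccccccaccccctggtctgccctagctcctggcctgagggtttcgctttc
Cd27, chr6:125237028-125237277, minus strand: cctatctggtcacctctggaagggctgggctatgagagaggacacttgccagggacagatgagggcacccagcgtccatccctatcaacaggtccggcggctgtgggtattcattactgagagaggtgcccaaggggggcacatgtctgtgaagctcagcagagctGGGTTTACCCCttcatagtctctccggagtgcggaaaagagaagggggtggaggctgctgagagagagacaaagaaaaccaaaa
Fas, chr19:34290409-34290658, plus strand: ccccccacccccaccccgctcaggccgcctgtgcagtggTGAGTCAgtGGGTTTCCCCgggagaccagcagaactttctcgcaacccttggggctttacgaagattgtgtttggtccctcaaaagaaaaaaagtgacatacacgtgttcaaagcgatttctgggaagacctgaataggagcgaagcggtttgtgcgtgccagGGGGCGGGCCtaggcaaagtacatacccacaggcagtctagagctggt
All 9 members matched a RefSeq start by symbol, with 11 windows because Tnfrsf9 and Tnfrsf25 have more than 1 start. The NF-kB-type motif was in 8 of the 11 windows, beside 45.8% of the 32851 mouse windows of the same length. A GC box was in 4 of them, beside 32.7%, and the AP-1 motif in 2, those of Fas and of 1 start of Tnfrsf9, beside 6.75%. The whole 250-base windows of Tnfrsf18 and Tnfrsf4, whose genes rose most, held none of these letters, while the Fas window held all 3 motifs. A match of letters is a description of the sequence and does not show a binding site.

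The libraries held 2178238 to 6260185 counts in VAT and 2069319 to 5328695 in spleen. Foxp3, the lineage's transcription factor, averaged 711 ± 67.2 CPM (counts scaled by library size) in VAT and 521 ± 56.0 CPM in spleen (SD, n = 17 and 18). Of 6 genes carried by Tregs (Foxp3, Il2ra, Ikzf2, Ctla4, Cd4 and Cd3e), 5 were higher in VAT, beside 28.4% of all genes tested, and Cd3e was lower. Cd4 and Il2ra, the gene of CD25, encode the markers of the sort, and Cd4 and Cd3e are not particular to Tregs. Markers of other cells were low beside the costimulatory receptors, but several lists were not low beside Tnfrsf1a and Fas. A macrophage list summed to 6.94 to 22.0 CPM in VAT and 23.2 to 97.2 CPM in spleen, a B cell list to 4.39 to 37.6 and 27.9 to 56.8 CPM, a conventional CD4 T cell list to 19.3 to 96.3 and 13.6 to 35.6 CPM, an NK cell and innate lymphoid cell list to 12.5 to 49.6 and 1.43 to 4.68 CPM, and an adipocyte list to 0 to 1.62 and 0 to 2.88 CPM. A dendritic cell list summed to 13.8 to 54.6 CPM in VAT and 11.1 to 33.5 CPM in spleen. For CD8 T cells the sums were 1.76 to 36.8 and 6.36 to 21.2 CPM. Plasma cell and erythroid lists reached 93.4 and 79.6 CPM in spleen, where their medians were 1.98 and 0.349 CPM. In VAT they reached 3.27 and 0.869 CPM. The stromal, endothelial and neutrophil lists reached no more than 8.49 CPM in either tissue. Of the 4 genes in the NK cell and innate lymphoid cell list, 3 were tested, with 1 higher in VAT and 2 lower. The higher one, Il5, averaged 21.8 ± 10.1 CPM in VAT and 0.116 ± 0.261 CPM in spleen and made up most of the VAT sum. Klrb1c and Eomes were the lower ones. Of all the markers in the 12 lists of other cell types, Mzb1 was at 0 in every VAT library and none was at 0 throughout spleen. A separate list of 14 immediate early and stress genes, which respond within minutes to stimulation or to handling of cells, summed to 37567 to 54501 CPM in VAT and 831 to 1454 CPM in spleen. All 14 were called higher in VAT, beside 28.4% of all genes tested. The part of these differences in the receptors' values was not tested.

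Among the receptors without a death domain, Tnfrsf18 rose most. It encodes GITR, a costimulatory receptor that is abundant on Tregs. It ranged over 861, 1044 and 1473 CPM (lowest, median and highest) in VAT libraries and over 279, 355 and 595 CPM in spleen libraries. Every VAT library was above every spleen library. The log2 fold change was 1.55 ± 0.06 (SE), a 2.93-fold rise (edgeR adjusted p = 2.35e-24). In bulk samples, a larger share of cells with a transcript and more transcript per cell cannot be told apart. An antisense gene, Gm16008, shares 414 of the 1524 exonic bases of Tnfrsf18 and averaged 52.6 CPM in VAT and 13.0 CPM in spleen. As the strand setting of the counting is not given in the sources used here, reads in the shared stretch cannot be told apart.

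**Figure D1:**
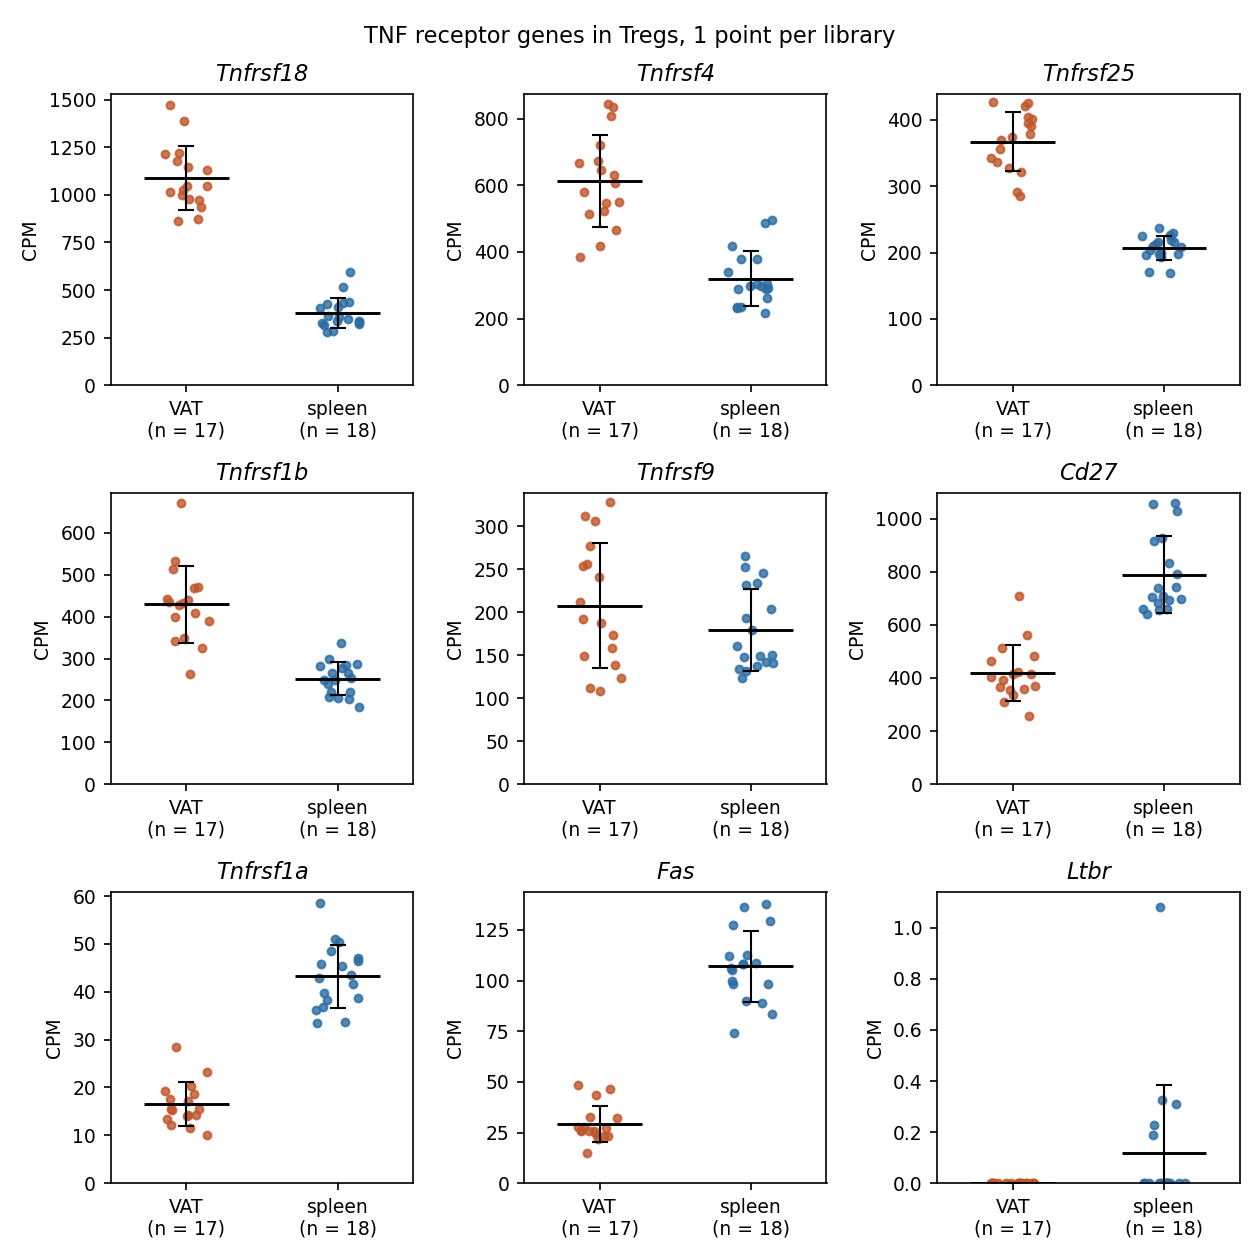
CPM of each receptor gene in every VAT library (left, n = 17) and spleen library (right, n = 18), with the mean as a bar and the SD as whiskers; each panel has its own axis from 0. Tnfrsf18, Tnfrsf25, Tnfrsf1a and Fas separate the tissues completely, Tnfrsf9 overlaps widely, and Ltbr is at 0 in all VAT libraries.

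Tnfrsf4, the neighbour of Tnfrsf18, encodes OX40, a costimulatory receptor induced on activated T cells and carried by Tregs. Its lowest, median and highest values were 386, 607 and 844 CPM in VAT and 217, 298 and 495 CPM in spleen. The tissues overlapped only where 3 VAT libraries fell below the highest spleen library, which was from ZT20. The log2 fold change was 0.98 ± 0.07 (edgeR adjusted p = 9.74e-14), a rise of 1.97-fold.

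Tnfrsf1b, which encodes TNFR2, the TNF receptor found mainly on lymphocytes and endothelium, rose by less. It had 263, 432 and 672 CPM in VAT and 185, 252 and 338 CPM in spleen as lowest, median and highest values. The VAT libraries below the highest spleen value were the 2 from ZT20. The log2 fold change was 0.72 ± 0.08 (edgeR adjusted p = 3.51e-10). At ZT20 alone the difference was 0.18 and did not pass the test (edgeR adjusted p = 0.575), with 263 and 326 CPM in the VAT libraries against 205, 284 and 288 CPM in the spleen libraries. Whether the tissue difference was the same at all 6 times was tested by itself, and Tnfrsf1b did not pass after edgeR's adjustment over all genes (adjusted p = 0.511, with an unadjusted value of 0.0364).

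Tnfrsf9 encodes 4-1BB, a receptor that appears on T cells after antigen stimulation. It ranged over 108, 192 and 328 CPM in VAT and 123, 155 and 265 CPM in spleen. The ranges overlapped through most of their length. The log2 fold change of 0.24 ± 0.13 did not pass the test (edgeR adjusted p = 0.101), and its 95% interval ran from -0.02 to 0.50. The call moved with single libraries and with scaling: it passed without VAT ZT4 C (adjusted p = 0.0379), without VAT ZT12 B (0.0477) or without spleen ZT16 B (0.0401), and with library totals the value was -0.11 (edgeR adjusted p = 0.444).

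Cd27, the receptor of CD70 and a marker that naive and central memory T cells keep and that can be lost on strongly differentiated cells, went the other way from the 3 TRAF-binding receptors that were called higher. Its values were 257, 405 and 709 CPM in VAT and 641, 724 and 1058 CPM in spleen. Just 1 VAT library, from ZT20, exceeded the lowest spleen library. The log2 fold change was -0.88 ± 0.07 (edgeR adjusted p = 6.38e-13), so that Cd27 was 1.84-fold lower in VAT.

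The 3 death domain receptors also split. Tnfrsf25, which encodes DR3 and binds the cytokine TL1A, had 285, 375 and 427 CPM in VAT and 170, 209 and 238 CPM in spleen as lowest, median and highest values. No VAT library reached down to a spleen library. The log2 fold change was 0.84 ± 0.05 (edgeR adjusted p = 7.92e-17).

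Tnfrsf1a, the gene of the widely expressed TNF receptor TNFR1, had 10.2, 15.5 and 28.6 CPM in VAT and 33.4, 43.1 and 58.5 CPM in spleen. The tissues did not overlap. It fell by 1.37 ± 0.11 on the log2 scale (edgeR adjusted p = 1.12e-13), or 2.59-fold. Fas, the receptor that starts apoptosis when it binds Fas ligand, had 14.9, 26.4 and 48.2 CPM in VAT and 74.1, 107 and 138 CPM in spleen. Here too every VAT library was below every spleen library. Of all 8 tested members Fas fell most, by 1.88 ± 0.12 on the log2 scale (edgeR adjusted p = 1.38e-16), or 3.68-fold. Macrophages and B cells can express both genes, and their marker lists were lower in VAT as well, with median sums of 11.3 CPM in VAT and 56.0 CPM in spleen for macrophages and of 14.9 CPM in VAT and 39.4 CPM in spleen for B cells. Their part in the falls of Tnfrsf1a and Fas was not tested.

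Ltbr encodes the receptor of membrane lymphotoxin and of LIGHT and is known from stromal and myeloid cells, not from lymphocytes. It had 0 counts among 70019928 reads in VAT, which allows up to 0.0428 CPM at a floor of 3 counts over the group. In spleen it had 7 counts, spread over 5 of 18 libraries. Those 7 counts were 0.113 CPM of the pooled spleen reads, above the VAT floor. The floor covers counting error only, and the difference between the tissues was not tested.

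In 4 of 8 tested members the tissues did not overlap between libraries, 2 higher in VAT and 2 lower, beside 10.4% of all genes tested, of which 6.40% were higher and 4.02% lower. The direction was also the same at all 6 times in 8 of 8 members, Tnfrsf9 included, beside 50.4% of all genes, and 7 of 8 were both called and of the same direction throughout, beside 48.3%. The median log2 fold change of the 8 members was 0.48, beside -0.10 over all 15910 genes tested. By role, the death domain receptors had 1 higher and 2 lower of 3, with a median of -1.37. The 5 TRAF-binding costimulatory receptors had 3 higher and 1 lower, with a median of 0.72. Over all genes tested, 28.4% were higher and 33.8% lower.

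**Figure D2:**
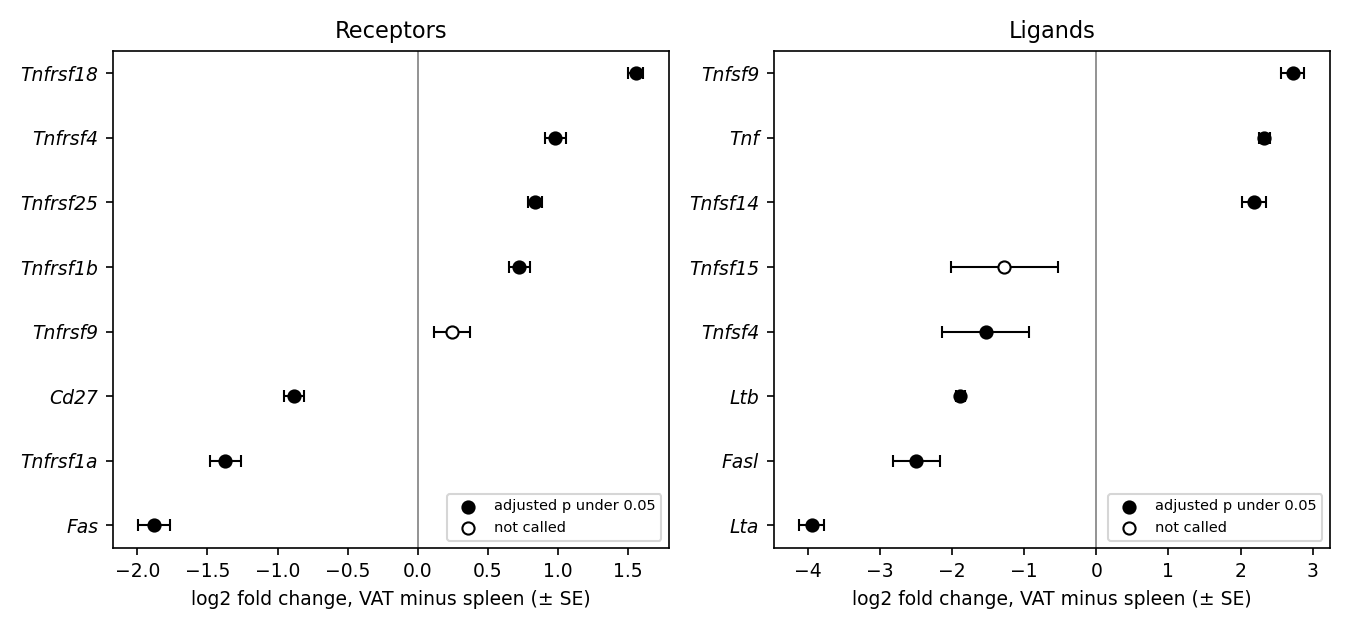
Log2 fold change, VAT minus spleen, of the tested receptors (left) and of their tested ligands (right); whiskers are the SE and open circles did not pass at an adjusted p of 0.05. The receptors run from Fas at -1.88 to Tnfrsf18 at 1.55, and the ligands from Lta at -3.95 to Tnfsf9 at 2.72.

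The order of the receptors within a cell type differed between the tissues when their levels were set on CPM per kb of joined exons, a scale on which genes of different length can be compared. In VAT, Tnfrsf18 was first with 714 ± 111 CPM per kb (SD, n = 17) and held 41.7% of the sum of the 9 receptors. Tnfrsf4 followed with 449 ± 100, Cd27 with 180 ± 45.3 and Tnfrsf25 with 161 ± 19.6 CPM per kb. In spleen, Cd27 was first with 339 ± 62.2 CPM per kb (SD, n = 18), 30.4% of the sum, before Tnfrsf18 with 249 ± 52.9, Tnfrsf4 with 234 ± 60.4 and Tnfrsf25 with 90.9 ± 8.06. Taken library by library, a look added after seeing the data, Tnfrsf18 was the highest member in 17 of 17 VAT libraries and Cd27 in 18 of 18 spleen libraries.

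Lower in the order, Tnfrsf1b had 113 ± 24.2 CPM per kb in VAT and 66.0 ± 10.5 in spleen, and Tnfrsf9 had 76.2 ± 26.6 in VAT and 65.7 ± 17.5 in spleen. Fas had 14.2 ± 4.36 CPM per kb in VAT and 51.9 ± 8.52 in spleen, and Tnfrsf1a had 6.38 ± 1.76 in VAT and 16.7 ± 2.56 in spleen. Ltbr was last in both, at 0 in VAT and at 0.05 CPM per kb in spleen. Ranges of neighbours overlapped except between Tnfrsf9 and Fas and between Tnfrsf1a and Ltbr in VAT, and between Tnfrsf4 and Tnfrsf25, Fas and Tnfrsf1a, and Tnfrsf1a and Ltbr in spleen. The sum over all 9 averaged 1714 ± 276 CPM per kb in VAT and 1113 ± 183 CPM per kb in spleen.

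**Figure D3:**
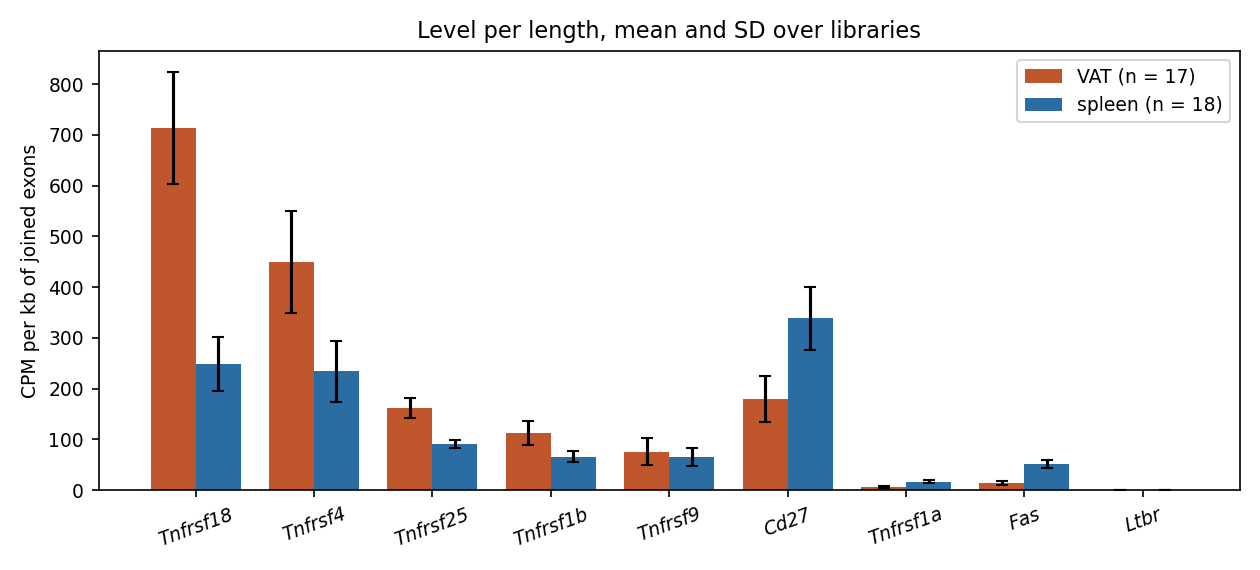
Mean level of each receptor in CPM per kb of joined exons, VAT bars left of spleen bars, with the SD over libraries as whiskers. Tnfrsf18 and Tnfrsf4 are the tallest bars in VAT, and Cd27, Tnfrsf18 and Tnfrsf4 the tallest in spleen.

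The 2 TNF receptors moved in opposite directions, so their ratio within each library was taken, also after seeing the data. Tnfrsf1b exceeded Tnfrsf1a per kb by a ratio of 7.74, 18.9 and 29.3 (lowest, median and highest) in VAT and of 2.36, 3.90 and 6.80 in spleen. The ratios did not overlap between tissues. The difference was 2.13 on the log2 scale and is given as a description, with no test, since the pair was chosen for its opposite directions. As a ratio within a library it does not depend on how libraries were scaled.

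Over the day, 0 of 8 members passed the test for a 24 h rhythm in VAT, beside 1.88% of all genes, and 0 of 8 in spleen, beside 1.99%. At an unadjusted edgeR p under 0.05 there were 4 in VAT, beside 17.5% of all genes, and 2 in spleen, beside 15.6%. DESeq2's likelihood ratio test called 0 members in either tissue, beside 675 genes in VAT and 854 in spleen. Without a filter on low counts, edgeR called 3 members in VAT (Tnfrsf4, Tnfrsf9 and Cd27) and 1 in spleen (Cd27). That setting called 1572 genes in VAT and 1446 in spleen, against 299 and 316 with the filter. With the filter, the fitted amplitudes of the genes under that unadjusted threshold, peak to trough on the log2 scale, were, in VAT, 0.83 ± 0.27 for Tnfrsf9 (edgeR adjusted p = 0.174), 0.62 ± 0.20 for Tnfrsf4 (0.159), 0.50 ± 0.17 for Cd27 (0.185) and 0.39 ± 0.15 for Tnfrsf18 (0.261). All 4 fitted peaks lay in the dark phase, between ZT18.8 and ZT21.0. That span holds ZT20, the VAT group with 2 libraries, and the share of all genes that peak there is not given. In spleen the fitted amplitudes were 0.45 ± 0.16 for Cd27 (edgeR adjusted p = 0.233) and 0.36 ± 0.14 for Tnfrsf18 (0.304).

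With time as a 6-level factor, which asks whether any time differs, Cd27 passed in VAT (edgeR adjusted p = 0.0470), beside 5.11% of all genes. Tnfrsf18 (edgeR adjusted p = 0.00737) and Tnfrsf4 (0.0199) passed in spleen, beside 2.02%. These values were highest at ZT20. In VAT, Cd27 had 561 and 709 CPM at ZT20, while the other times averaged between 361 CPM at ZT12 and 411 CPM at ZT4. Spleen Tnfrsf18 was lowest at ZT0, with 279, 285 and 316 CPM, and highest at ZT20, with 433, 515 and 595 CPM. Spleen Tnfrsf4 likewise had 217, 231 and 235 CPM at ZT0 and 380, 487 and 495 CPM at ZT20.

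The ZT20 libraries also stood apart in a measure that covers all genes. The slope of log2 CPM on log2 gene length, which is lower in libraries where long transcripts are less covered, was 0.561 to 0.574 at ZT20 in VAT, below all other VAT libraries, which reached 0.710. In spleen it was 0.542 to 0.554 at ZT20, within a range of 0.525 to 0.649. With the slope as a covariate, a fit added after seeing the data, 0 members passed the 6-level factor, with edgeR adjusted p of 0.899 for VAT Cd27, 0.0776 for spleen Tnfrsf18 and 0.209 for spleen Tnfrsf4. Calls fell over all genes as well, to 36 genes in VAT and 131 in spleen, against 813 and 322 without the slope. The VAT amplitudes of the rhythm fit with the slope were 0.51 for Tnfrsf9, 0.35 for Tnfrsf4, 0.09 for Cd27 and 0.16 for Tnfrsf18. Between tissues the same covariate left the 7 called receptors called in the same direction, with Cd27 at -0.51 and Tnfrsf1b at 0.49, and Tnfrsf9 passed at 0.55 (edgeR adjusted p = 0.0267).

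The test of a difference in rhythm between the tissues called 0 of 8 members, and 0.00629% of all genes, so that it does not set the members apart from other genes. There were 0 of 8 at an unadjusted edgeR p under 0.05, beside 9.09%, and 0 by DESeq2, beside 22 genes in all. Neither count shows that the rhythms were alike. The test of the tissue difference by time also called 0 of 8, beside 0.00629% of all genes, with 1 of 8, Tnfrsf1b, at an unadjusted p under 0.05, beside 9.27%. Tnfrsf1a and Fas had the smallest fitted amplitudes in VAT, 0.05 ± 0.24 and 0.09 ± 0.24, with an error larger than the estimate in both.

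**Figure D4:**
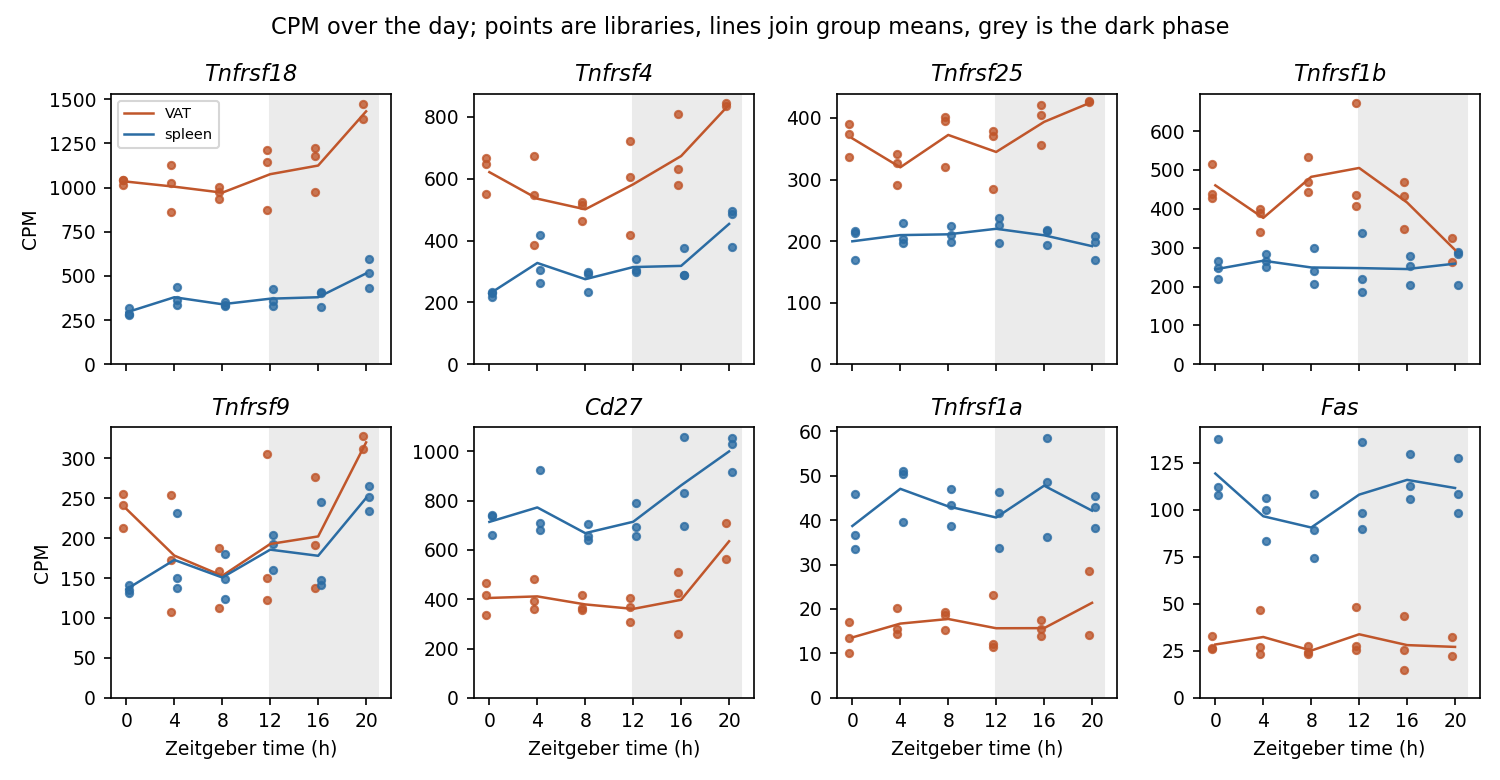
CPM of the 8 tested receptors at each Zeitgeber time (h), with 1 point per library, lines through the group means, VAT in orange and spleen in blue, and the dark phase in grey. The tissue order holds at all 6 times for Tnfrsf18, Tnfrsf4, Tnfrsf25, Cd27, Tnfrsf1a and Fas, and the VAT mean of Tnfrsf1b nears that of spleen at ZT20.

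The ligands of these receptors also split, 3 higher and 4 lower of 8 tested, with a median log2 fold change of -1.41. Over all genes tested, 28.4% were higher and 33.8% lower, with a median of -0.10. Tnf, the ligand of both TNF receptors, had 191, 255 and 482 CPM (lowest, median and highest) in VAT and 32.0, 56.1 and 72.0 CPM in spleen. All VAT libraries were above all spleen libraries, with a log2 fold change of 2.33 ± 0.07 (edgeR adjusted p = 6.98e-26). Lta, the gene of lymphotoxin alpha, which binds the same receptors, averaged 2.74 ± 1.45 CPM in VAT and 41.6 ± 7.39 CPM in spleen, with a log2 fold change of -3.95 ± 0.17 (edgeR adjusted p = 1.63e-21). Ltb, whose product anchors lymphotoxin to the membrane and makes it a ligand of Ltbr, averaged 270 ± 80.1 CPM in VAT and 1003 ± 158 CPM in spleen, with a log2 fold change of -1.88 ± 0.06 (edgeR adjusted p = 4.10e-26). Of the ligands shared by the TNF receptors, Tnf was thus the one higher in VAT and Lta the one lower.

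Tnfsf9, the ligand of 4-1BB, averaged 29.4 ± 8.72 CPM in VAT and 4.53 ± 1.95 CPM in spleen, a log2 fold change of 2.72 ± 0.17 (edgeR adjusted p = 3.47e-17). Tnfsf14, the gene of LIGHT, averaged 45.2 ± 14.1 CPM in VAT and 10.6 ± 4.83 CPM in spleen, a log2 fold change of 2.18 ± 0.16 (edgeR adjusted p = 4.59e-14). Fasl, the ligand of Fas, averaged 2.22 ± 1.69 CPM in VAT and 11.2 ± 4.66 CPM in spleen, and fell together with its receptor by 2.49 ± 0.32 on the log2 scale (edgeR adjusted p = 2.98e-08). The remaining ligands were barely expressed by either kind of Treg. Tnfsf4, the ligand of OX40, averaged 0.641 ± 0.912 CPM in VAT and 1.46 ± 1.24 CPM in spleen (log2 fold change -1.54 ± 0.60, edgeR adjusted p = 0.0258). Tnfsf15, the gene of the DR3 ligand TL1A, averaged 0.730 ± 1.10 CPM in VAT and 1.06 ± 1.68 CPM in spleen and did not pass (edgeR adjusted p = 0.135). Tnfsf18, the ligand of GITR, had 65 counts over all VAT libraries and 5 over all spleen libraries, and Cd70 had 7 counts in VAT and 12 in spleen, and neither was tested.

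Tnf and Ltb passed the rhythm test in VAT, with amplitudes of 0.81 peaking at ZT20.6 (edgeR adjusted p = 0.0103) and 0.91 peaking at ZT21.1 (edgeR adjusted p = 6.13e-04). Neither passed in spleen, and the difference in rhythm was not called for either. With the length slope as a covariate, tried after seeing the data, Ltb still passed at 0.70 (edgeR adjusted p = 0.0146), and Tnf did not, at 0.52 (0.267). Without the ZT20 libraries, and so with fewer samples, the amplitudes were 0.71 for Ltb (edgeR adjusted p = 0.0503) and 0.53 for Tnf (0.410), and neither passed.

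Further receptors of the family, 13 of 19 tested, had 5 higher and 6 lower, beside 28.4% and 33.8% of all genes. Their median log2 fold change was -0.72. Tnfrsf11a, the gene of RANK, rose by 4.67 ± 0.55, Tnfrsf10b, a death receptor of TRAIL, by 2.98 ± 0.14, and Tnfrsf12a, the receptor of TWEAK, by 1.98 ± 0.20. Tnfrsf10b had the highest CPM of these, a mean of 64.0 ± 14.8 in VAT and of 8.10 ± 3.49 in spleen. Tnfrsf11a was near 0 in spleen, with a mean CPM of 0.411 ± 0.784, and had 5.50 ± 3.03 in VAT. Cd40, Tnfrsf21 and Relt were the 3 that fell most, with log2 fold changes of -2.76, -2.22 and -1.52. Cd40, a receptor of B cells and other antigen presenting cells, was near 0, with a mean CPM of 0.216 ± 0.421 in VAT and of 0.891 ± 1.21 in spleen.

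The adaptors downstream were TRAF proteins, cIAPs and the linear ubiquitin machinery. They had 4 higher and 6 lower of 14, beside 28.4% and 33.8% of all genes, with a median of 0.00. Traf5 stood out among them with 20.1 ± 5.42 CPM in VAT and 115 ± 13.0 CPM in spleen, a log2 fold change of -2.52 ± 0.11 (edgeR adjusted p = 7.16e-22). TRAF5 is an adaptor of OX40 and CD27. Traf1, an NF-kB target that joins TRAF2 complexes, averaged 863 ± 120 CPM in VAT and 512 ± 43.2 CPM in spleen and rose by 0.77 ± 0.05. Traf4 rose by 0.78 ± 0.14 and Birc3, which encodes a cIAP, by 0.52 ± 0.06, while Rbck1 and Rnf31, which encode subunits of the linear ubiquitin ligase, fell by 0.61 and 0.46. Traf4 alone of the adaptors passed a rhythm test, in spleen (edgeR adjusted p = 0.0461), with an amplitude of 1.30. Its amplitude was 1.29 with the length slope as a covariate, where it did not pass (edgeR adjusted p = 0.182), and 2.16 without the ZT20 libraries, where it did (5.18e-04).

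Of 8 genes of death signalling, 2 were higher and 4 lower, beside 28.4% and 33.8% of all genes, with a median of -0.16. The 2 that rose belong to necroptosis: Mlkl, whose product permeabilises the membrane, by 2.55 ± 0.25, and Ripk3, the kinase that activates it, by 1.75 ± 0.06. Ripk3 averaged 216 ± 29.5 CPM in VAT and 65.1 ± 8.79 CPM in spleen. Cflar, the gene of an inhibitor of caspase-8, fell by 0.46. The 2 genes that link Fas to caspases were not called, with Fadd at 0.00 (edgeR adjusted p = 1.00) and Casp8 at -0.09 (0.123), and were named here after their values were seen.

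The NF-kB list had 11 higher and 3 lower of 15, beside 28.4% and 33.8% of all genes, with a median of 0.43. Its largest rises were in inhibitors and feedback genes that are themselves induced by the pathway: Tnfaip3, the gene of A20, by 5.39 ± 0.23, Nfkbiz by 3.72 ± 0.07 and Nfkbia, the gene of IkB alpha, by 3.47 ± 0.07. Nfkbia averaged 7889 ± 1754 CPM in VAT and 733 ± 162 CPM in spleen. Relb, Ikbkb and Ikbkg fell by 0.70, 0.65 and 0.32. The immediate early genes given above rose in the same VAT libraries, and their part in the NF-kB list was not tested. Nfkbib passed the rhythm test in VAT (edgeR adjusted p = 0.0382), and Chuk (0.0189) and Nfkbie (0.0225) in spleen, with amplitudes of 0.66, 0.98 and 0.59. With the length slope as a covariate the amplitudes were 0.58, 0.72 and 0.59, and none of the 3 passed (edgeR adjusted p of 0.267, 0.186 and 0.0734). Without the ZT20 libraries they were 0.60, 0.83 and 0.49, and again none passed (0.323, 0.108 and 0.237). Adam10 and Adam17, the proteases that shed TNF receptors from the surface, were not called, at -0.04 ± 0.15 and 0.01 ± 0.13.

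**Figure D5:**
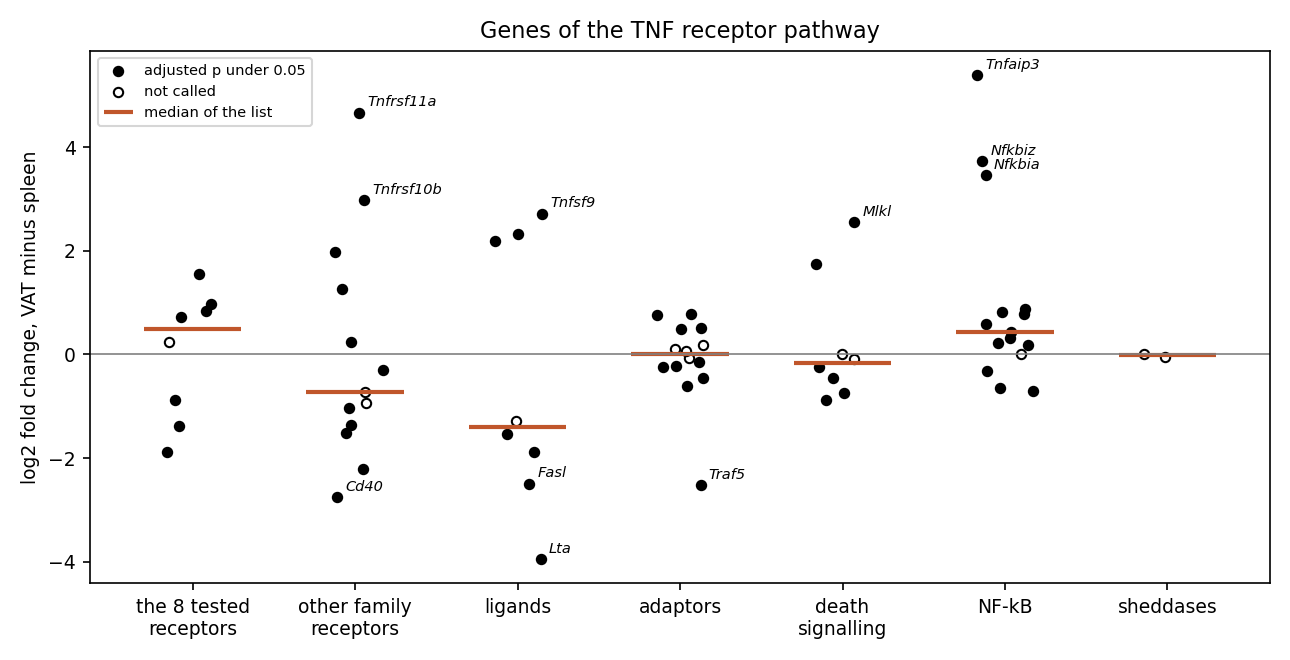
Log2 fold change, VAT minus spleen, of each tested gene of the pathway by role, with 1 point per gene, filled where the adjusted p was under 0.05, and the list's median as a bar. The medians run from -1.41 for the ligands to 0.48 for the receptors, and genes beyond 2.4 on either side are named.

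The genes whose group means were most like those of the receptors at the ends of the range were found over the 12 groups of tissue and time, as a description. For Tnfrsf18 they were Pdcd1, the gene of the inhibitory receptor PD-1 (Pearson r = 0.997), Ndfip1 (0.996) and Pld3 (0.994), among 1554 of 15902 genes with r over 0.9. For Fas they were Sp140 (0.996), Traf5 (0.995) and Usp18 (0.994), among 1296 such genes. The points share the tissue difference and the libraries, which is why so many genes reach such values. With each tissue's mean removed, the most like genes were Pdcd1 for Tnfrsf4 (0.97), Ssr2 for Cd27 (0.99), Gnptg for Tnfrsf9 (0.96), Pip4k2c for Tnfrsf1b (0.96), Gm6035 for Tnfrsf18 (0.97), Malsu1 for Tnfrsf1a (0.92), Akt1 for Tnfrsf25 (0.90) and Wdr20rt for Fas (0.88).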

How the data were processed

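RNA was primed with oligo-dT, amplified by PCR and sequenced as paired 25 nt reads, per the labels' protocols, which mention no molecular identifiers. The authors deposited raw read counts by gene symbol, for which the submitters' processing notes name STAR 2.7.3a, featureCounts and the mm10 build; no source used here gives the annotation or strand setting. Per-kb levels used GENCODE M21 exon lengths.

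Counts were tested in R 4.3.3 with edgeR 4.0.16: filterByExpr over the 12 groups kept 15910 genes, libraries were scaled by TMM factors, and robust quasi-likelihood tests were adjusted by Benjamini-Hochberg over those genes at a threshold of 0.05. VAT against spleen was the mean of 6 group differences, and the tissue difference by time had 5 degrees of freedom. Rhythm was a 24 h cosine and sine (2 degrees of freedom) for each tissue in 1 model. Scripts were tested on simulated data. CPM are counts scaled after TMM, and log2 CPM used a prior count of 2. Replicate pairs within a group differed beyond sampling noise (chi-square per gene 4.30 to 22.6).

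The receptors and gene lists were chosen with earlier results of these data known. Named genes were all receptors and ligands, from each other list up to 3 called genes with the largest and 3 with the smallest log2 fold change, any called for rhythm, and the genes of most like pattern; some genes this rule would name are not reported here. Alternatives covered scaling, filter, replicate block, length slope, DESeq2 1.42.0, single times, and each library or time left out.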

Additional observations from a re-analysis of the deposited data

How the results depend on the processing

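Between tissues, the 7 called receptors kept their direction under every alternative run, and their call except for Tnfrsf1b at ZT20 alone (0.18). Tnfrsf9, not called, passed with the length slope and without 3 single libraries, and turned to -0.11 with library totals, which move the median of all genes from -0.10 to -0.45. Leaving out 1 library gave 4 to 5 receptors higher, 3 to 3 lower and 9685 to 9864 genes in all, against 9896, and single times gave 4824, 4519, 4501, 4474, 4883 and 3806 genes, with fewer samples. In spleen the longest transcript as length put 2 members at another rank.

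Calls of rhythm were less stable. In VAT (299 genes) there were 196 with library totals, 1572 without a filter, 27 with the length slope, 17 without ZT20, 813 with the 6-level factor, 42 with VAT fitted alone and 675 by DESeq2. In spleen (316) there were 1446 without a filter, 105 with the slope, 584 with spleen alone and 854 by DESeq2. Receptors were called for rhythm without a filter, 3 in VAT (Tnfrsf4, Tnfrsf9 and Cd27) and 1 in spleen (Cd27). The 6-level factor asks whether any time differs, not for a rhythm. It called 1 receptor in VAT and 2 in spleen, among 813 and 322 genes. The cause of these calls was not tested. The difference in rhythm (1 gene) had 0 with library totals or relative log expression factors, 1547 without a filter, 3 with the slope, 24 without ZT20 and 22 by DESeq2, and the tissue difference by time (1 gene) had 2, 373 and 9 with totals, no filter and the slope. Leaving out 1 library gave 54 to 1008 genes with rhythm in VAT, 98 to 569 in spleen, 0 to 11 for their difference and 0 to 29 for the difference by time, with 0 to 0 receptors in each; 11 of 35 libraries moved the VAT count by over 1.5 times (lowest without VAT ZT20 A, highest without VAT ZT0 C) and 10 the spleen count (without spleen ZT16 B and ZT16 A).

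The labels do not say whether a replicate letter marks shared animals, and the main tests did not use the letters as pairs. Over 17 same-letter pairs the correlation of deviations between the tissues was -0.11 to 0.06, with 0 over 0.1. With so few libraries per group and replicates that differ beyond sampling noise, these correlations cannot show whether animals were shared. With the letter as a replicate block, 124 genes were called for rhythm in VAT, 171 in spleen and 0 for their difference, and the receptors' calls between tissues did not change.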
